A study of Mus musculus with 6 samples.

Results

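Transcripts of 46 lysosomal genes were measured in primary microglia of the mouse, macrophages that reside in the brain, treated with FTY720 and LPS together or with FTY720 alone. The genes are 10 proteases (cathepsins and legumain), 12 glycosidases, lipases and other hydrolases with their cofactors, 8 membrane proteins, 12 subunits of the vacuolar proton pump and the 4 transcription factors of the MiT/TFE family. They were picked by symbol from the 24411 genes listed in the count tables, and all 46 had a row. Of these, 45 had enough reads to be tested among 10124 tested genes. The exception, Atp6v0c, had 0 reads in every FTY720 + LPS library and 2 reads in 1 FTY720 library.

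Cells in the FTY720 + LPS group (3 libraries) were exposed for 4 h to 10 ng/ml lipopolysaccharide (LPS), a bacterial wall component recognised by Toll-like receptor 4, in the presence of 1 µM FTY720. Cells in the FTY720 group (3 libraries) were exposed to 1 µM FTY720 for the same 4 h. FTY720 (fingolimod) is phosphorylated in cells and then binds receptors for sphingosine-1-phosphate. Since both groups carried it, every difference reported is between cells with and without LPS in the presence of FTY720. The microglia of both groups were shaken from mixed glial cultures made from the pooled brains of 12 ICR pups aged 3 days, with over 92% of cells CD11b-positive. Replicates were described as independent RNA samples, and separate cultures or animal pools were not stated, so p-values measure the spread between RNA samples. A difference between the cultures of the groups cannot be told apart from one of LPS.

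Lysosomes degrade proteins, glycans and lipids that reach them by endocytosis, phagocytosis and autophagy. Their hydrolases work at acidic pH, which is kept by the vacuolar H+-ATPase, a rotary pump with a membrane sector (V0) that passes protons and a cytosolic sector (V1) that hydrolyses ATP. Many lysosomal genes carry the CLEAR element, an E-box variant bound by TFEB, TFE3, TFEC and MITF; TFEB and TFE3 raise lysosomal gene transcription when they enter the nucleus. In microglia and other phagocytes the cathepsins also cut antigens and the invariant chain.

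Libraries held 2431775 to 3454647 gene reads, of which 28.8% to 59.0% fell on Rn45s, Lars2 and Mir6236, which collect rRNA-like sequence. The 46 genes took 94028 to 162805 reads per library. FTY720 replicate 3 stood apart from the other libraries, with a TMM scaling factor of 1.43 and a position of 22.4 on the second principal component. Markers of microglia were present (C1qa 613 CPM in FTY720 + LPS cells and 331 CPM in FTY720 cells), whereas Tmem119, Gpr34 and Siglech were at or near the floor of 3 reads.

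RefSeq promoter windows (GRCm38.p6, 250 bases before to 50 after the annotated start) were found for 39 of the 46 genes. The CLEAR core TCACGTGA, searched on both strands, occurred in 6 of these 39 genes (15.4%), against 1.12% of the 27025 genes in the promoter table. The 6 genes are Ctsa, Ctsd, Gla, Mcoln1, Atp6v0d1 and Atp6v1a. The shorter E-box CACGTG, which lies inside every TCACGTGA, occurred in 14 of 39 genes (35.9%), against 8.09% of all genes. An ISRE-like motif (interferon-stimulated response element), searched on both strands, occurred in 3 of 39 genes (7.69%; Ctss, Lamp1 and Atp6v1d), against 3.99% of all genes. These matches describe the letters in the windows and do not identify bound sites.

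The 250 bases before the start are printed for the lower-expressed Gla and Mcoln1, for Ctsd, the most abundant of the 46 transcripts, and for Lamp1, whose window holds 4 copies of CACGTG and no TCACGTGA. Sequences run 5′ to 3′ on the gene's strand, and capitals mark TCACGTGA, or CACGTG where it stands outside that core. The windows are chrX:134601006-134601255 (minus strand) for Gla, chr8:3500269-3500518 (plus strand) for Mcoln1, chr7:142387828-142388077 (minus strand) for Ctsd and chr8:13158911-13159160 (plus strand) for Lamp1.
Gla: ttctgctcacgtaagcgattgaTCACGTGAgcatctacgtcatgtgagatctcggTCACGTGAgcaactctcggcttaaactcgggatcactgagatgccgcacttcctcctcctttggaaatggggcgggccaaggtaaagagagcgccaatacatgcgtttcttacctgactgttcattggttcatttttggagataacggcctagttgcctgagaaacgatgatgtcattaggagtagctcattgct
Mcoln1: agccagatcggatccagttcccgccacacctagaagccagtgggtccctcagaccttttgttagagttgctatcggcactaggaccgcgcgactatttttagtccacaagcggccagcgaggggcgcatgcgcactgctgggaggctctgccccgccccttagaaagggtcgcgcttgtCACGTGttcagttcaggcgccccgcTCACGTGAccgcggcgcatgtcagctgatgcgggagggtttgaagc
Ctsd: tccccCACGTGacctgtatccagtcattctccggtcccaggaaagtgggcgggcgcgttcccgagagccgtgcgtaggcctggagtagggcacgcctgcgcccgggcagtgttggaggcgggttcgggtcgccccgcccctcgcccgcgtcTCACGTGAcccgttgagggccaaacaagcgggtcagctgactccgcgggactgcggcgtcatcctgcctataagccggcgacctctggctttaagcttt
Lamp1: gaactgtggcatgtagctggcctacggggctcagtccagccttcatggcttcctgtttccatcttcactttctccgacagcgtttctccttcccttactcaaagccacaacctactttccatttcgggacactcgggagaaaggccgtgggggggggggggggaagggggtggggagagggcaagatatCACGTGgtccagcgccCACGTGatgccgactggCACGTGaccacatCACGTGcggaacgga

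Short stretches around the core are given for the other 3 genes, to show how the bases beside it differ. They lie at chr2:164833749-164833787 (plus strand) for Ctsa, chr8:105566050-105566079 (minus strand) for Atp6v0d1 and chr16:44139373-44139402 (minus strand) for Atp6v1a.
Ctsa: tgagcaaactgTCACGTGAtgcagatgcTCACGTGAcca
Atp6v0d1: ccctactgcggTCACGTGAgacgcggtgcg
Atp6v1a: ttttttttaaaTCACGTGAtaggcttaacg

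Gla and Ctsa have 2 copies of the core each. Among genes with a window, the core was found in 1 of the 21 called higher with LPS, 2 of the 4 called lower and 3 of the 14 not called or not tested.

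With LPS added and under TMM scaling, most proteases, hydrolases and membrane glycoproteins of the lysosome were higher. Some proton pump subunits were higher, some were lower and some were not called. The α-galactosidase Gla, the lysosomal calcium channel Mcoln1 and the transcription factor Tfeb were lower. By edgeR's quasi-likelihood test, with Benjamini-Hochberg adjustment over all tested genes and a threshold of 0.05, 23 of the 45 genes were higher and 7 were lower. Over all 10124 tested genes, 23.3% were higher and 22.7% were lower. The groups did not overlap for 30 of the 45 lysosomal genes, against 54.0% of all tested genes. The median log2 fold change was 0.31 for the 45 genes and -0.04 for all tested genes. Without FTY720 replicate 3, the library that stood apart, 24 were higher and 8 lower, and without FTY720 + LPS replicate 1 or 2 only 4 of the 45 were lower, with 23 and 21 higher. In bulk libraries fewer cells of a type and less RNA per cell cannot be told apart.

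**Figure D1:**
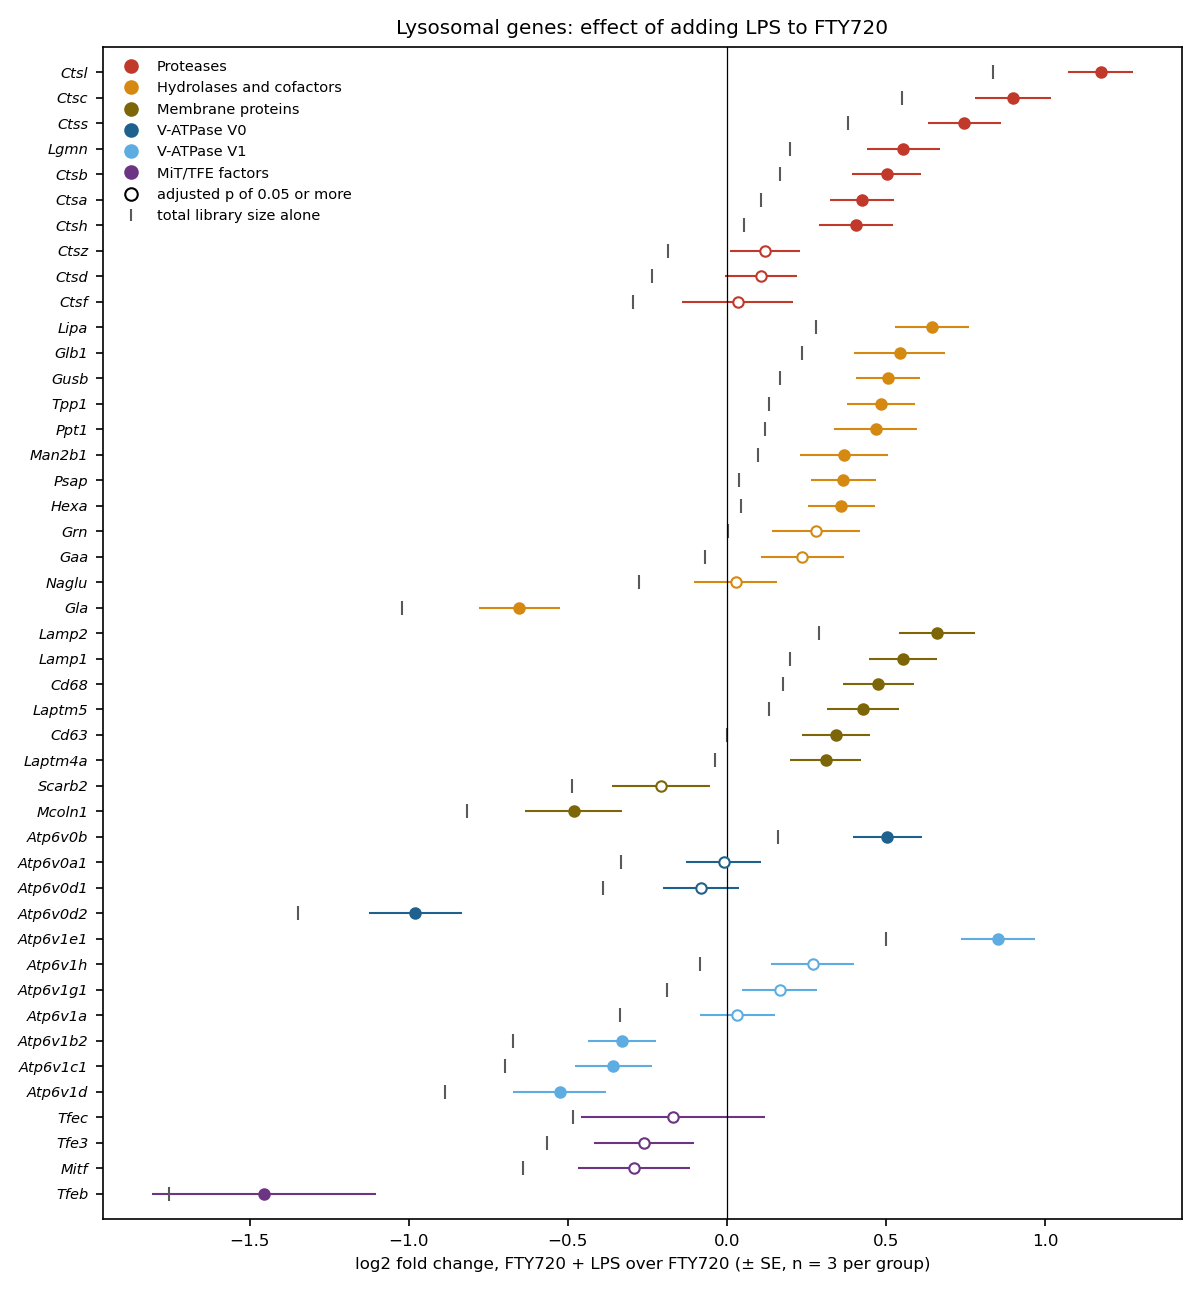
Log2 fold change (FTY720 + LPS over FTY720) of the 45 tested lysosomal genes, grouped by role. Points are edgeR estimates with TMM scaling and bars are ± SE (n = 3 per group), open points have an adjusted p of 0.05 or more, and short vertical ticks give the estimate with total library size alone. Ctsl lies farthest right at 1.17 and Tfeb farthest left at -1.46, and the pump subunits spread on both sides of 0.

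How many genes were called higher depended on the scaling. Of the 23 higher genes, Ctsl alone was called higher with each of RLE factors, upper-quartile factors, total library size alone and DESeq2. Of the 7 lower genes, 6 were called lower with each of them. With RLE factors 23 were higher and 7 lower (2419 and 2222 of all 10124 tested genes). With DESeq2 22 were higher and 7 lower (2036 and 1529 of all 10124). With upper-quartile factors 17 were higher and 9 lower (background 18.6% and 29.3%), and the median over all tested genes shifted by -0.13. With total library size alone 1 was higher and 6 were lower (background 7.52% and 26.5%), and the median over all genes shifted by -0.32. That size includes the reads on Rn45s, Lars2 and Mir6236, which were 28.8% to 59.0% of gene reads per library.

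Abundant transcripts of every kind tended to be higher with LPS, and 17 of the 45 lysosomal genes are among the 270 tested genes with a mean log2 CPM of at least 8. In that range 15 of the 17 lysosomal genes were higher and 0 were lower, against 85.6% higher and 2.96% lower for all genes there, and the median was 0.48 for the lysosomal genes and 0.73 for all genes. Between 6 and 8, 7 of 21 were higher and 5 were lower, against 49.2% and 13.3% of all genes in that range. Between 4 and 6, 1 of 5 was higher and 1 was lower, against 22.5% and 23.3%. Below 4, where Tfeb and Tfec lie, 0 of 2 were higher and 1 was lower, against 10.7% and 26.7%. The share called higher among abundant lysosomal genes was thus near that of equally abundant genes. When the trend of fold change on expression was removed, 4 genes stayed higher (Ctsc, Ctsl, Glb1 and Atp6v1e1) and 16 were lower, against 21.4% higher and 18.4% lower over all genes. The 16 include all 7 lower genes of the TMM-scaled test, and the median of the 45 was -0.23.

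**Figure D2:**
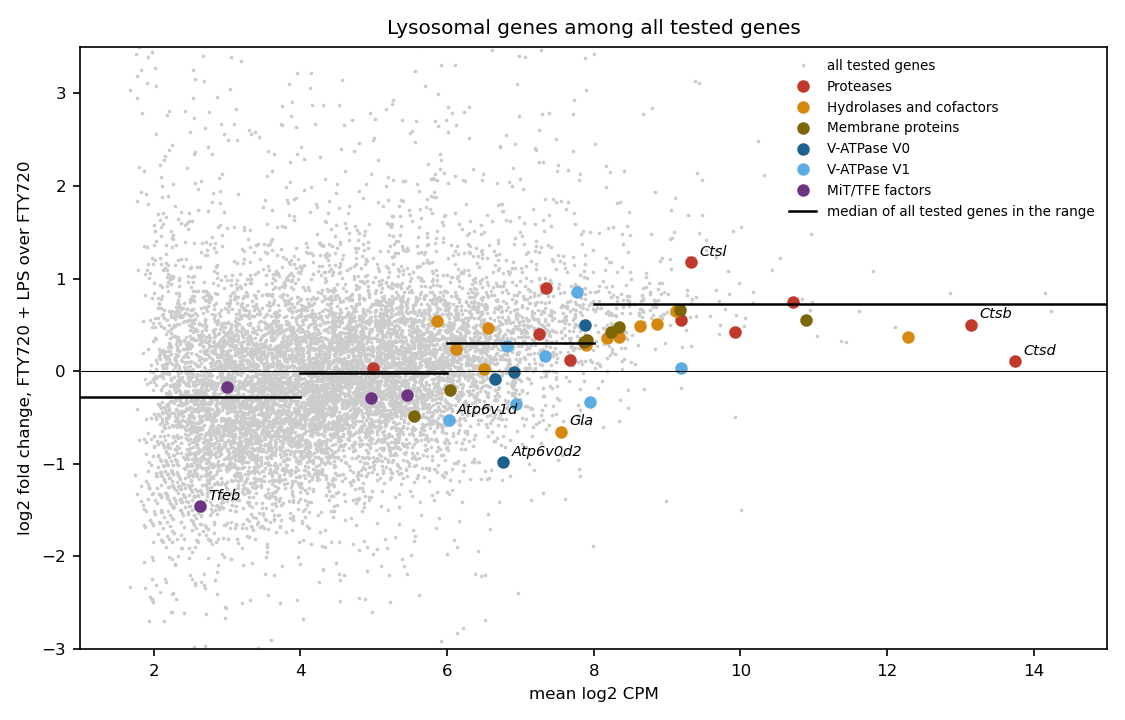
Log2 fold change (FTY720 + LPS over FTY720) against mean log2 CPM for all tested genes (grey) and the 45 lysosomal genes (coloured by role). Horizontal black lines give the median of all tested genes in each expression range, from -0.28 below 4 to 0.73 at 8 and above, and 113 genes lie beyond the vertical axis limits of -3 and 3.5. Ctsl lies above the line of its range, and Gla and Atp6v0d2 lie below theirs.

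The calls of 5 lysosomal genes held in all 16 alternatives (other scalings, filters, strands, tools, trend removal, a replicate block and each library left out). These were Ctsl, higher, and Gla, Atp6v0d2, Atp6v1d and Tfeb, lower.

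Among the 10 proteases 7 were higher, 0 were lower and 3 were not called, against 23.3% higher and 22.7% lower over all tested genes. The median change was 0.46 on the log2 scale. With the expression trend removed 2 of the 10 were higher and 4 were lower. Ctsl encodes cathepsin L, a cysteine endopeptidase that cleaves many endocytosed proteins (chromosome 13, 64359337 to 64370890, minus strand, GRCm38). Its level was 862, 891 and 929 CPM in FTY720 + LPS cells, against 382, 383 and 423 CPM in FTY720 cells. Each FTY720 + LPS library was above every FTY720 library. The 2.26-fold rise (1.17 ± 0.10 on the log2 scale, SE, n = 3 per group) had an edgeR adjusted p of 1.86e-09. It was also called higher with the expression trend removed, at 0.41, and with total library size alone, at 0.83. Ctsl shares 395 bases of exon with the annotated pseudogene Gm49230 on the same strand, which has no row in the count tables.

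Ctsc encodes cathepsin C, the dipeptidyl peptidase that activates granule serine proteases in leukocytes. Its level was 188, 216 and 239 CPM in FTY720 + LPS cells, against 118, 103 and 123 CPM in FTY720 cells, with no overlap. The difference was 0.90 ± 0.12 on the log2 scale (edgeR adjusted p = 2e-06), and it did not pass with total library size alone. Ctss, cathepsin S, which trims the invariant chain before antigen loading, stood at 2056, 2136 and 2163 CPM in FTY720 + LPS cells and at 1171, 1110 and 1505 CPM in FTY720 cells. The highest FTY720 value came from replicate 3, and the groups did not overlap (log2 fold change 0.75 ± 0.11, edgeR adjusted p = 1.23e-05).

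Ctsd, the aspartic protease cathepsin D, had the highest level per length of the 46 genes, 6686 ± 388 RPKM in FTY720 + LPS cells and 6207 ± 447 RPKM in FTY720 cells (SD, n = 3). Its libraries read 13427, 14161 and 15074 CPM in FTY720 + LPS cells, against 12487, 12836 and 14282 CPM in FTY720 cells. These values overlapped, and the log2 fold change of 0.11 ± 0.11 was not called (edgeR adjusted p = 0.458). Ctsd shares 808 bases of exon, 34.4% of its exons, with Gm49369 on the same strand, a gene without a row in the count tables. Ctsb, the cysteine protease cathepsin B, stood at 2233 ± 78.6 RPKM in FTY720 + LPS cells and 1576 ± 94.8 RPKM in FTY720 cells (SD, n = 3). Its log2 fold change was 0.50 ± 0.11, and with the expression trend removed it was -0.63 and was called lower (edgeR adjusted p = 6.14e-05). Lgmn (asparaginyl endopeptidase), Ctsa (protective protein for lysosomal galactosidase and sialidase) and Ctsh (an aminopeptidase) were higher by 0.55, 0.42 and 0.40 on the log2 scale, calls that also were lost with total library size alone. Ctsz and Ctsf, 2 further cysteine cathepsins, had log2 fold changes of 0.12 and 0.03 and were not called.

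**Figure D3:**
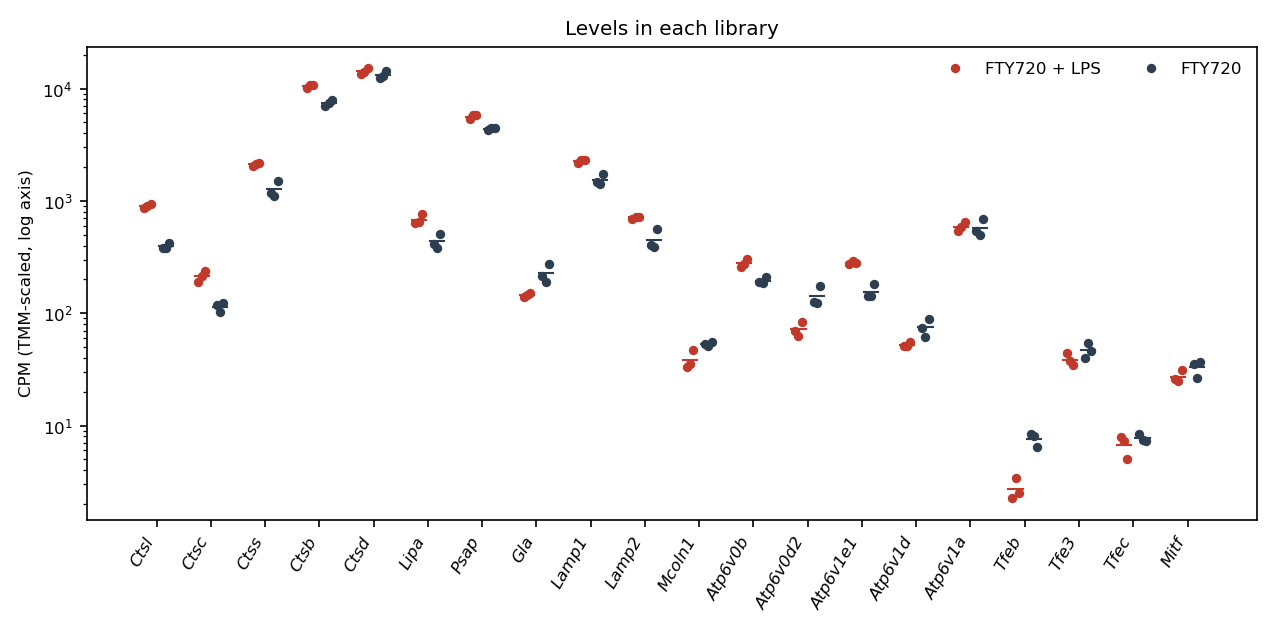
CPM (TMM-scaled, log axis) of 20 lysosomal genes in each library, FTY720 + LPS in red and FTY720 in dark blue. Each point is 1 library and each short line is the group mean (n = 3). Ctsl, Ctsc and Atp6v1e1 separate upward with LPS and Gla, Atp6v0d2 and Tfeb downward, while the Ctsd, Atp6v1a, Tfe3, Tfec and Mitf groups overlap.

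Of the 12 hydrolases and cofactors 8 were higher, 1 was lower and 3 were not called, against 23.3% higher and 22.7% lower over all tested genes. The median change was 0.37 on the log2 scale. Removing the expression trend left 1 of the 12 higher and 2 lower. Lipa, the acid lipase that frees cholesterol and fatty acids from lipoprotein lipids, stood at 633, 652 and 759 CPM in FTY720 + LPS cells, against 414, 383 and 508 CPM in FTY720 cells. The groups did not overlap, and the log2 fold change was 0.65 ± 0.12 (edgeR adjusted p = 9.12e-05).

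Gla was the 1 lower hydrolase; it encodes α-galactosidase A, which removes terminal galactose from globotriaosylceramide and is deficient in Fabry disease. Its level was 139, 145 and 150 CPM in FTY720 + LPS cells and 213, 191 and 275 CPM in FTY720 cells. The FTY720 + LPS libraries lay close together, and all were below the lowest FTY720 library. The transcript was 1.57-fold lower (log2 fold change -0.65 ± 0.13, edgeR adjusted p = 0.000226). Leaving out 1 library at a time gave -0.74 to -0.48.

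Psap encodes prosaposin, the precursor of the saposin cofactors of sphingolipid hydrolases, and was the most abundant of this group per length, at 2053 ± 97.5 RPKM in FTY720 + LPS cells and 1593 ± 31.8 RPKM in FTY720 cells (SD, n = 3). Its libraries held 5325, 5770 and 5804 CPM in FTY720 + LPS cells, against 4271, 4418 and 4426 CPM in FTY720 cells. The groups were apart, with a log2 fold change of 0.37 ± 0.10, which was 0.23 and not called with upper-quartile factors. With the expression trend removed it was -0.71 and was called lower (edgeR adjusted p = 7.47e-06). Glb1 (β-galactosidase), Gusb (β-glucuronidase), Tpp1 (a tripeptidyl peptidase) and Ppt1 (a palmitoyl thioesterase) were higher by 0.54, 0.51, 0.48 and 0.47 on the log2 scale. Glb1 shares 165 bases of exon with Tmppe on the same strand. Man2b1 (α-mannosidase) and Hexa (the enzyme subunit deficient in Tay-Sachs disease) were higher by 0.37 and 0.36, and the Man2b1 groups overlapped. The Man2b1 call was lost without any 1 of 4 libraries, and without FTY720 replicate 3 its log2 fold change was 0.18. Grn (progranulin), Gaa (acid α-glucosidase) and Naglu (an N-acetylglucosaminidase) were at 0.28, 0.24 and 0.03 and were not called. Without FTY720 replicate 2 Grn was called higher, at 0.44 (edgeR adjusted p = 0.0076), and with length and GC offsets Grn and Gaa were called higher, at 0.37 and 0.48.

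Of the 8 membrane proteins 6 were higher and 1 was lower, against 23.3% and 22.7% of all tested genes. The median change was 0.38 on the log2 scale. Removing the expression trend left 0 of the 8 higher and 2 lower. Lamp1 and Lamp2 are the heavily glycosylated proteins that line the lysosomal membrane, and Lamp2 also takes part in chaperone-mediated autophagy. Lamp1 read 2190, 2292 and 2299 CPM in FTY720 + LPS cells, against 1472, 1401 and 1746 CPM in FTY720 cells. Lamp2 read 691, 723 and 721 CPM in FTY720 + LPS cells, against 406, 386 and 556 CPM in FTY720 cells. In both genes FTY720 replicate 3 was the highest FTY720 library and still lay below every FTY720 + LPS library. The log2 fold changes were 0.55 ± 0.11 for Lamp1 and 0.66 ± 0.12 for Lamp2 (edgeR adjusted p = 0.000189 and 0.000113), and with the expression trend removed they were -0.39, called lower, and -0.08, not called.

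Cd68, a mucin-like macrophage protein, Laptm5, a protein of immune-cell lysosomes, Cd63, a tetraspanin of late endosomes, and Laptm4a were higher by 0.48, 0.43, 0.34 and 0.31 on the log2 scale. An annotated copy at 98.0% identity covers 80.7% of a Cd63 transcript, so its count is uncertain. Laptm4a lost its call in 8 of the 16 alternatives. Scarb2, the receptor that carries glucocerebrosidase to the lysosome, was at -0.21 and was not called, although without FTY720 replicate 3 it was called lower at -0.36.

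Mcoln1 encodes mucolipin 1, a channel that releases calcium from the lysosome. It stood at 33.0, 35.3 and 46.9 CPM in FTY720 + LPS cells and at 52.7, 51.4 and 55.2 CPM in FTY720 cells. The groups were apart, with FTY720 + LPS replicate 3 closest to the FTY720 libraries. The log2 fold change was -0.48 ± 0.15 (edgeR adjusted p = 0.0132), and the call was lost without FTY720 + LPS replicate 1 or 2 (adjusted p = 0.127 and 0.0879) and with length and GC offsets (adjusted p = 0.0529).

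In the V0 sector of the proton pump 1 of the 4 tested genes was higher and 1 lower, with a median of -0.05. These shares were near those over all tested genes, 23.3% higher and 22.7% lower. With the expression trend removed 0 of the 4 were higher and 3 lower. Atp6v0d2 encodes the macrophage- and osteoclast-enriched form of the d subunit, which links the sectors (chromosome 4, 19876841 to 19922605, minus strand, GRCm38). It stood at 69.4, 63.0 and 83.6 CPM in FTY720 + LPS cells, against 125, 123 and 174 CPM in FTY720 cells. All FTY720 + LPS libraries were lower, and the highest value was that of FTY720 replicate 3. The transcript was 1.97-fold lower (log2 fold change -0.98 ± 0.15, edgeR adjusted p = 9.62e-06), and without 1 library at a time the change was -1.07 to -0.79. Atp6v0d1, the widely expressed d subunit, was at 98.7, 94.5 and 98.8 CPM in FTY720 + LPS cells and at 98.8, 114 and 96.9 CPM in FTY720 cells. These values overlapped, with a log2 fold change of -0.08 ± 0.12 that was not called.

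Atp6v0b, the c″ proteolipid of the proton-carrying ring, stood at 257, 276 and 301 CPM in FTY720 + LPS cells, against 188, 187 and 211 CPM in FTY720 cells. It was higher by 0.50 ± 0.11 on the log2 scale (edgeR adjusted p = 0.000666), a call that was lost with total library size alone. Atp6v0a1, a form of the a subunit, was at -0.01 and was not called. Atp6v0c, the main ring proteolipid, could not be followed. Of its transcripts, 1 is covered over 74.2% of its length by 2 annotated copies, the closer at 99.8% identity, and the part of these copies in its low count was not tested.

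In the V1 sector 1 of 7 genes was higher and 3 were lower, with a median of 0.03. Over all tested genes 23.3% were higher and 22.7% lower. With the expression trend removed 1 of the 7 was higher and 4 were lower. Atp6v1e1, a subunit of the peripheral stalk, stood at 275, 292 and 277 CPM in FTY720 + LPS cells, against 143, 142 and 181 CPM in FTY720 cells. Its groups were far apart, and it rose by 0.85 ± 0.12 on the log2 scale (edgeR adjusted p = 2.54e-06), although not with total library size alone. Atp6v1d, a subunit of the central rotor, stood at 50.7, 50.7 and 55.4 CPM in FTY720 + LPS cells, against 73.9, 61.8 and 88.4 CPM in FTY720 cells. It was lower in all 3 libraries by 0.53 on the log2 scale (-0.53 ± 0.15, edgeR adjusted p = 0.0052).

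Atp6v1a, the catalytic subunit that binds ATP, had the most reads of the sector, 537, 589 and 644 CPM in FTY720 + LPS cells and 542, 501 and 686 CPM in FTY720 cells. Its groups overlapped, and its log2 fold change was 0.03 ± 0.12. Atp6v1b2, the partner of the A subunit in the ATPase ring, and Atp6v1c1, a regulatory stalk subunit, were lower at -0.33 ± 0.11 and -0.36 ± 0.12 on the log2 scale (edgeR adjusted p = 0.0147 and 0.0197). The Atp6v1b2 call was lost with total library size alone and without FTY720 + LPS replicate 1 or 2. The Atp6v1c1 call was lost when any 1 of the 3 FTY720 + LPS libraries was left out, where its change was -0.35, -0.38 and -0.27. Atp6v1h and Atp6v1g1 were at 0.27 and 0.17 and were called higher, at 0.45 and 0.29, only when FTY720 replicate 3 was left out of the 6 libraries. Copies at 99.4% identity cover 31.5% of the Atp6v1g1 transcript, so its count is uncertain.

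Tfeb, a master regulator of lysosomal genes, was scarce, with 6, 8 and 5 reads in FTY720 + LPS cells and 25, 24 and 27 reads in FTY720 cells. These counts correspond to 2.25, 3.41 and 2.52 CPM in FTY720 + LPS cells and to 8.40, 8.06 and 6.40 CPM in FTY720 cells. The groups did not overlap, and Tfeb was 2.74-fold lower (log2 fold change -1.46 ± 0.35, edgeR adjusted p = 0.00178; chromosome 17, 47737030 to 47792419, plus strand, GRCm38). The estimate was -1.64 to -1.29 with 1 library left out, and its SE is the largest of the 45 genes.

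The other MiT/TFE factors were not called. Tfe3 stood at 44.3, 37.5 and 34.3 CPM in FTY720 + LPS cells and at 39.6, 54.1 and 46.2 CPM in FTY720 cells. Mitf stood at 25.9, 24.7 and 31.2 CPM in FTY720 + LPS cells and at 35.6, 26.5 and 37.0 CPM in FTY720 cells. Tfec stood at 7.88, 7.24 and 5.04 CPM in FTY720 + LPS cells and at 8.40, 7.39 and 7.35 CPM in FTY720 cells. All 3 overlapped between groups, with log2 fold changes of -0.26 ± 0.16, -0.29 ± 0.18 and -0.17 ± 0.29 for Tfe3, Mitf and Tfec. With upper-quartile factors Tfe3 and Mitf were called lower, at -0.40 and -0.42. Per length Tfe3 led the family, at 10.7 RPKM in FTY720 + LPS cells and 12.9 RPKM in FTY720 cells, whereas Tfeb was at 0.679 RPKM in FTY720 + LPS cells and 1.90 RPKM in FTY720 cells.

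Ratios of reads between 2 lysosomal genes in the same library need no scaling factor. The 7 pairs given here were chosen after their values were seen, so they carry no test. Ctsl reads were 0.0642, 0.0629 and 0.0616 of the Ctsd reads in FTY720 + LPS cells, against 0.0306, 0.0298 and 0.0296 in FTY720 cells. The ratio of Ctsb to Ctsd was 0.746 ± 0.0226 in FTY720 + LPS cells and 0.567 ± 0.0113 in FTY720 cells (SD, n = 3), and that of Ctss to Ctsd was 0.149 ± 0.00503 in FTY720 + LPS cells and 0.0952 ± 0.00952 in FTY720 cells. Within the protease group, the cysteine cathepsins L, B and S thus gained reads relative to cathepsin D in every FTY720 + LPS library.

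Within the pump, Atp6v0d2 had 0.739 ± 0.0953 reads per Atp6v0d1 read in FTY720 + LPS cells and 1.38 ± 0.373 in FTY720 cells (SD, n = 3). The d subunit with more reads was thus Atp6v0d1 in every FTY720 + LPS library and Atp6v0d2 in every FTY720 library. These reads are not per length: Atp6v0d2 averaged 28.4 RPKM in FTY720 + LPS cells and 55.5 RPKM in FTY720 cells, and Atp6v0d1 averaged 59.8 RPKM in FTY720 + LPS cells and 63.3 RPKM in FTY720 cells. Atp6v1e1 had 5.40 ± 0.379 reads per Atp6v1d read in FTY720 + LPS cells and 2.10 ± 0.180 in FTY720 cells (SD, n = 3). Gla had 0.264 ± 0.00264 reads per Gusb read in FTY720 + LPS cells and 0.584 ± 0.0775 in FTY720 cells. Lamp1 had 60.1 ± 9.56 reads per Mcoln1 read in FTY720 + LPS cells and 28.9 ± 2.36 in FTY720 cells. In all 7 pairs the FTY720 + LPS libraries lay on one side of the FTY720 libraries, which the choice of pairs by their values favoured.

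**Figure D4:**
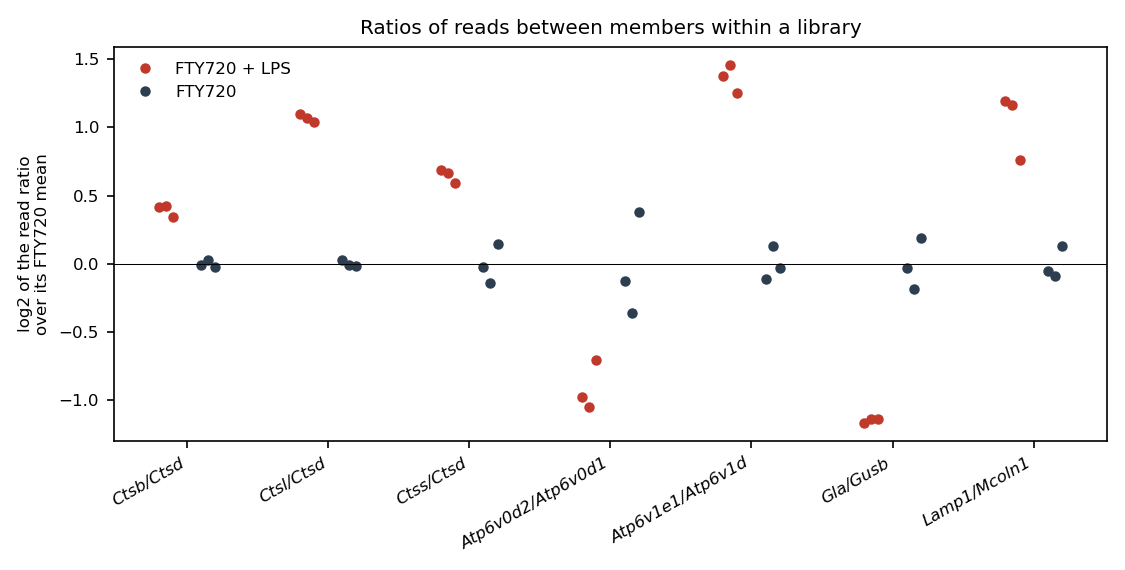
Log2 of the ratio of reads between pairs of lysosomal genes, relative to the mean ratio in FTY720 cells; each point is 1 library (FTY720 + LPS in red, FTY720 in dark blue, n = 3 each). The pairs were chosen after their values were seen, so the lack of overlap between groups carries no test. The spread in FTY720 cells is widest for Atp6v0d2 over Atp6v0d1.

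The make-up of the lysosomal reads also differed between the groups. Ctsd took 31.2% ± 0.531 of the reads of the 46 genes in FTY720 + LPS cells and 36.6% ± 0.406 in FTY720 cells (SD, n = 3), and Ctsb took 23.3% ± 0.322 in FTY720 + LPS cells and 20.7% ± 0.331 in FTY720 cells. All proteases together took 66.5% ± 0.231 in FTY720 + LPS cells and 66.8% ± 0.508 in FTY720 cells. Membrane proteins took 9.49% ± 0.224 in FTY720 + LPS cells and 8.48% ± 0.220 in FTY720 cells. The V0 subunits took 1.24% ± 0.0374 in FTY720 + LPS cells and 1.55% ± 0.00389 in FTY720 cells, and the V1 subunits took 3.39% ± 0.0378 in FTY720 + LPS cells and 4.06% ± 0.333 in FTY720 cells. The 46 genes together made up 6.87% ± 0.183 of gene reads other than rRNA-like ones in FTY720 + LPS cells and 7.43% ± 0.242 in FTY720 cells. Ctsb and Ctsd made up 3.75% ± 0.104 of those reads in FTY720 + LPS cells and 4.26% ± 0.171 in FTY720 cells. The other 44 genes made up 3.13% ± 0.0816 in FTY720 + LPS cells and 3.17% ± 0.0746 in FTY720 cells, less than the spread between libraries. On the TMM scale the summed level of the 46 genes ran the other way, with 43309 to 47376 CPM in FTY720 + LPS cells and 34456 to 38576 CPM in FTY720 cells.

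Genes of the wider lysosomal pathway were counted in 7 lists, of which 131 genes were tested, 34 higher and 35 lower, against 23.3% and 22.7% of all tested genes. Other hydrolases and lipid transfer proteins, outside the 46, were higher in 15 and lower in 3 of 35. These counts were 11 and 10 with upper-quartile factors, 2 and 4 with total library size alone and 9 and 7 with the expression trend removed, and 1 was lower without FTY720 + LPS replicate 1 and 5 were lower without FTY720 replicate 3. Their called genes with the largest changes were Naaa, which hydrolyses N-acylethanolamines (2.80 ± 0.37), Sgsh, the heparan N-sulfatase (-2.07 ± 0.27), and Acp5, the tartrate-resistant acid phosphatase (1.72 ± 0.29), all as log2 fold changes with SE. Of 4 tested cathepsin inhibitors 3 were higher and 0 lower: Cst3 (cystatin C, 0.76 ± 0.10), Cst7 (cystatin F, 0.76 ± 0.26) and Cstb (cystatin B, 0.31 ± 0.12). The Cst7 and Cstb calls were each lost in 5 or more of the 16 alternatives.

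Lists of other membrane proteins, pump factors and sorting factors held genes called in both directions. Over all tested genes 23.3% were higher and 22.7% lower. Other membrane and storage-disease proteins were higher in 4 and lower in 9 of 23, with Mfsd12, a cysteine transporter of lysosomes and melanosomes, at -1.65 ± 0.20, Slc15a3, a histidine and peptide transporter, at 1.48 ± 0.10, and Tpcn2, a two-pore channel, at -1.21 ± 0.18. Other pump subunits and accessory proteins were higher in 6 and lower in 2 of 12. The 2 lower ones, Dmxl2 (-1.39 ± 0.11) and Wdr7 (-1.17 ± 0.14), encode partner proteins of the complex that assembles V1 with V0, and Atp6ap2, an accessory subunit, was at 0.63 ± 0.13. In the mannose 6-phosphate and sortilin sorting list 2 of 16 were higher and 2 lower, smaller shares than over all tested genes. Among the called ones were M6pr, the cation-dependent mannose 6-phosphate receptor (0.70 ± 0.11), and the adaptors Gga2 (-0.78 ± 0.21) and Ap1b1 (-0.62 ± 0.14).

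Lists that act on TFEB and on lysosome movement held more lower than higher genes, while over all tested genes 23.3% were higher and 22.7% lower. Of 25 tested genes that control TFEB at the lysosome 3 were higher and 8 lower, led by Rragd, a Rag GTPase that presents TFEB and TFE3 to mTORC1 (-1.79 ± 0.17), Nprl3, a subunit of the GATOR1 complex (-1.09 ± 0.28), and Fnip2, a folliculin partner (-1.05 ± 0.12). DESeq2 called 5 of them lower. Of 16 genes for lysosome fusion and positioning 1 was higher and 11 were lower, and the median change was -0.62 on the log2 scale. The largest changes were those of Plekhm1, a Rab7 effector (-1.41 ± 0.14), Arl8a, a GTPase that tethers lysosomes to kinesin (-1.01 ± 0.13), and Vps33a, a subunit of the HOPS tethering complex (-0.96 ± 0.16). In this list 11 were lower with total library size alone and 12 with the expression trend removed. Over all tested genes those settings called 26.5% and 18.4% lower.

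Marker levels of several cell types differed between the groups beside the lysosomal genes. Over all tested genes 23.3% were higher and 22.7% lower. These shares were 7.52% and 26.5% with total library size alone, and 21.4% and 18.4% with the expression trend removed. The summed level of 17 microglial markers was 4725 to 5466 CPM in FTY720 + LPS cells and 2972 to 3183 CPM in FTY720 cells, with 11 of 12 tested ones higher, against 2 with total library size alone and 5 with the expression trend removed. For 10 monocyte and border macrophage markers the sums were 523 to 623 CPM in FTY720 + LPS cells and 285 to 327 CPM in FTY720 cells, with 4 of 4 tested ones higher and Ly6c2 at 0 reads in all libraries. Of these 4, 0 were called higher with total library size alone and 4 with the expression trend removed. Oligodendrocyte-lineage markers summed to 146 to 169 CPM in FTY720 + LPS cells and 280 to 306 CPM in FTY720 cells (6 of 7 tested lower), and neuronal markers to 107 to 119 CPM in FTY720 + LPS cells and 194 to 259 CPM in FTY720 cells (4 of 5 lower). The counts of 6 and 4 lower were the same with total library size alone and with the expression trend removed. Sums for astrocyte markers were 109 to 148 CPM in FTY720 + LPS cells and 98.8 to 118 CPM in FTY720 cells (2 higher and 1 lower of 7), and for fibroblast and mural markers 145 to 215 CPM in FTY720 + LPS cells and 91.9 to 187 CPM in FTY720 cells (0 of 6 called). The part of these markers in the lysosomal differences was not tested.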

How the data were processed

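Strand-specific, rRNA-depleted RNA-seq libraries were sequenced on an Illumina HiSeq2000, per the labels' protocols. The authors deposited raw read counts per gene and strand, 1 table per library. STAR 2.5.1, Trimmomatic 0.33, CASAVA 1.8.2, DESeq2 and the build mm10 are named in the submitters' processing notes; a gene annotation was not given in the sources used here. As sense served the strand with 98.4% to 98.9% of gene reads. Rows naming no gene were left out (unmapped 24.4% to 27.0%, multimapping 7.69% to 8.15%, no feature 42.2% to 44.5% and ambiguous 0.0748% to 0.114% of reads listed).

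Sense counts were tested with edgeR 4.0.16 (R 4.3.3; TMM, filterByExpr with a minimum count of 10) over 10124 of 24411 genes. SE was obtained as |log2 fold change| over the root of F. CPM and RPKM use TMM-scaled sizes, and RPKM the exon union of the basic transcripts of GENCODE M21 (GRCm38). Exon overlaps and length offsets use its full annotation, which matched 23379 genes. The floor for a count of 0 is 3 reads, 0.868 to 1.23 CPM, and covers counting error only. Every replicate pair differed by more than sampling noise (chi-square per degree of freedom 1.28 to 4.39).

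Members and lists were chosen with earlier results of these data known. Genes were named by rule: called members changed by at least 0.8 (log2), the 2 with the largest change and the most abundant in each role group, all MiT/TFE factors, members whose call depends on scaling or 1 library, and up to 3 called genes of each pathway list. The alternatives were DESeq2 1.42.0, other scalings (RLE factors, upper-quartile factors and total library size alone) and leaving out Rn45s, Lars2 and Mir6236. Further ones were no filter, unstranded counts, trend removal, length and GC offsets, a replicate block and each library left out. Without Rn45s, Lars2 and Mir6236, 23 members were higher and 7 lower. Castor1, Castor2, Vamp7, Borcs5, Borcs6 and Pip4p1 of the pathway lists were not matched. The values of 1 marker gene are not reported here.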

Additional observations from a re-analysis of the deposited data

How the results depend on the processing

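The number of lysosomal genes called higher was 23 and was 1 with total library size alone and 4 with the expression trend removed; 7 were lower, and 16 with the trend removed. Leaving out 1 library gave 21 to 24 higher and 4 to 8 lower, the fewest higher without FTY720 + LPS replicate 2 or FTY720 replicate 1, the fewest lower without FTY720 + LPS replicate 1 or 2, and the most of both without FTY720 replicate 3. Their median log2 fold change, 0.31, was 0.33 with DESeq2, 0.33 with RLE factors, 0.18 with upper-quartile factors, 0.00093 with total library size, 0.28 without the filter, 0.30 unstranded, 0.27 with length and GC offsets, -0.23 with the trend removed and 0.31 to 0.35 with 1 library left out. Pathway genes called higher, 34, were 3 with total library size and 17 with the trend removed. With the trend removed 25 genes with a positive change turned negative. Of these, Ctsa, Ctsb, Ctsd, Ctsz, Psap, Lamp1 and Atp6v1a were then called lower. Those called in at least 1 of both fits were Ctsa -0.42, Ctsb -0.63, Ctsd -1.07, Ctsh -0.0094, Ctss -0.18, Ctsz -0.38, Lgmn -0.19, Hexa -0.23, Gusb -0.19, Man2b1 -0.25, Lipa -0.089, Psap -0.71, Tpp1 -0.18, Lamp1 -0.39, Lamp2 -0.082, Cd63 -0.20, Cd68 -0.14, Laptm5 -0.17, Laptm4a -0.22, Atp6v0b -0.030 and Atp6v1a -0.71; the others were Naglu, Grn, Atp6v1g1 and Atp6v1h, and Tfec turned positive. With total library size 9 turned negative, none then called, among them Laptm4a at -0.039, and 5 did with upper-quartile factors. These settings change the offsets by construction; the cause of the trend on expression was not tested. Numbers shared by replicates of both groups did not pair them (correlations of deviations -0.02, -0.03 and -0.07); with the number as a replicate block 23 lysosomal genes were higher, 7 lower, the median was 0.32, and 2292 and 2174 of all genes were called, so no call of the 45 changed. Over all genes 2362 were higher and 2297 lower, and 3770 to 5217 were called with 1 library left out. Tfeb and Tfec had few reads, and small differences in them were not detectable at this depth. The TCACGTGA count was 6 genes, and 5 with the bases before the start alone.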
